A study of Mus musculus with 10 samples.

Results

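Nuclear receptors are transcription factors, most of which are switched on by a small lipid-soluble ligand such as a steroid, a retinoid, vitamin D, thyroid hormone or a fatty acid derivative. Many bind DNA as a pair with a retinoid X receptor, and the orphan members act without a known natural ligand or are regulated mainly by how much of them is made. In the mammary gland the receptors for estrogen and progesterone are the best studied members, and glucocorticoids, retinoids, vitamin D and thyroid hormone are also known to act on its epithelium. The genes described here are the other nuclear receptors, a list of 44 names without the main estrogen receptor and the progesterone receptor, found by symbol among the 24594 genes of the count table. All 44 were present in the table, and 30 had enough counts to be tested.

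The transcript levels come from bulk RNA-seq of mammary cells of virgin, wild type C57BL/6J mice, with no transgene and no treatment in either group. Enzymes were used to free the cells from the gland. Flow sorting with antibodies to EpCAM and CD49f then gave luminal cells, which line the duct and can come to make milk, and basal cells, which surround them and can contract. Each cell type has 5 libraries, so that every mean below is over n = 5 with its SD. By the study's methods its mice were young adults, within a range of some weeks, while the labels give no age by library. The labels do not say that each library is a separate animal, so that a p-value here measures the spread between these libraries. Levels are counts scaled to library size (CPM, the usual depth-scaled unit), and a log2 fold change is luminal against basal, so that a positive value is a higher level in luminal cells.

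Grouping followed the cell type label, and in all 10 samples the title names the other cell type. All 9 luminal markers tested were higher in the libraries labelled luminal and all 7 basal markers in those labelled basal. Library totals ranged from 13203146 to 17998165 counts. Summed markers of adipocytes were at 1.08 to 2.60 CPM in luminal and 0.155 to 1.31 CPM in basal libraries, with Adipoq at 0 in all of them, and 0 of the 6 reached the count needed for a test. Summed fibroblast markers were at 27.9 to 118 CPM in luminal and 37.8 to 56.9 CPM in basal libraries (1 of the 7 tested higher in luminal, 2 in basal cells). Endothelial markers were at 2.69 to 7.10 CPM and 7.002 to 13.9 CPM (1 of 3 tested higher in basal), immune markers at 15.6 to 21.8 CPM and 26.4 to 53.0 CPM (2 of 4 higher in each cell type, Cd3e at 0 in all libraries), and the 3 red blood cell markers at 4.74 to 18.3 CPM and 0.546 to 2.28 CPM (1 of 2 tested higher in luminal). The study's general sorting methods also lyse red blood cells and stain TER-119, CD31 and CD45, surface markers of red blood, endothelial and immune cells, whereas the labels of these libraries name EpCAM and CD49f alone. The part of these cells in the receptor levels was not tested. In bulk cells, fewer cells of a type and less RNA per cell cannot be told apart.

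Of the 30 receptors tested, luminal cells had the higher level of 12 (40.0%) and basal cells of 9 (30.0%). The test was edgeR's quasi-likelihood test, with Benjamini-Hochberg adjustment over 14609 genes and a threshold of 0.05. The 2 sorted populations differ so widely that 33.6% of all genes tested passed toward luminal and 31.2% toward basal cells, or 64.8% in either direction, against 70.0% of the receptors. With a change of at least 2-fold as well, 14 receptors were called (46.7%, against 40.0% of all genes), 7 in each direction. The libraries of the 2 cell types did not overlap for 17 receptors (56.7%, against 50.1% of all genes). The receptors were thus called about as often as genes in general, and their median log2 fold change of -0.03 lay near the 0.05 of all genes tested. Within several subfamilies, however, the members had opposite directions, as the levels of each receptor by library show.

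**Figure D1:**
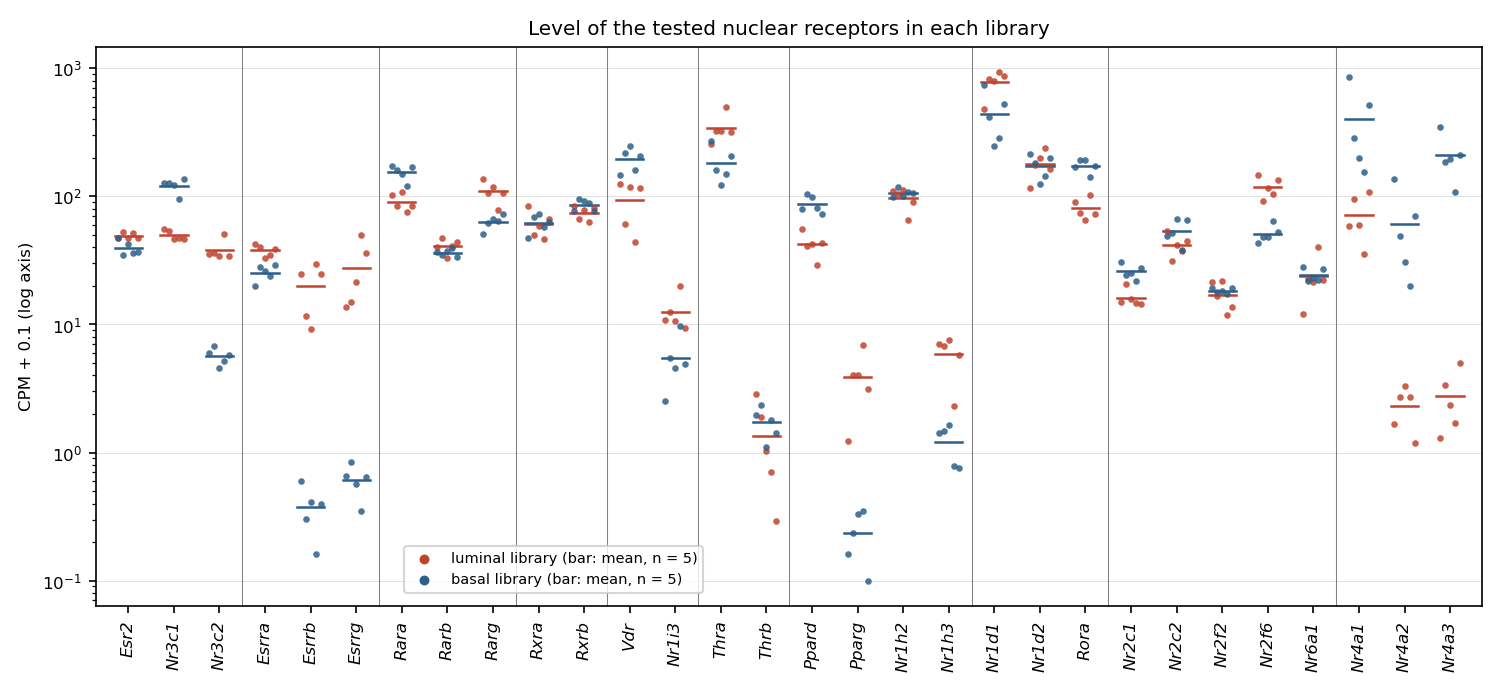
Level of each of the 30 tested receptors in each library, as CPM plus 0.1 on a log axis. Red points are the 5 luminal and blue points the 5 basal libraries, bars are means, and vertical lines part the receptor groups. Esrrb, Esrrg and Pparg lie above all basal libraries in luminal cells and Nr4a2 and Nr4a3 far above all luminal libraries in basal cells, whereas the retinoid X receptors Rxra and Rxrb overlap between the cell types.

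The largest differences toward basal cells were those of the NR4A receptors, orphan members whose ligand pocket is filled by side chains and whose activity follows their own rapid transcription after a stimulus. Nr4a1 (Nur77, Entrez 15370, GRCm38 chr15:101253902-101274795, plus strand) was at 58.1, 94.8, 59.2, 35.4 and 109 CPM in luminal libraries 1 to 5 and at 861, 288, 199, 156 and 520 CPM in basal libraries 1 to 5. The groups did not overlap, and basal library 4 came nearest to the luminal libraries. Nr4a1 was 5.68-fold higher in basal cells (log2 fold change -2.51 ± 0.442 SE, adjusted p = 0.000186).

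Nr4a2 (Nurr1, Entrez 18227, chr2:57106830-57124003, minus strand) was at 1.56, 2.63, 3.19, 2.60 and 1.08 CPM in the luminal and at 137, 49.0, 30.7, 19.9 and 69.8 CPM in the basal libraries. Nr4a3 (Nor1, Entrez 18124, chr4:48045078-48086447, plus strand) was at 1.19, 3.27, 2.27, 1.60 and 4.89 CPM in the luminal and at 348, 186, 196, 109 and 210 CPM in the basal libraries. Both were low in every luminal library and several times higher in every basal library, with no overlap. Nr4a2 was 27.6-fold higher (log2 fold change -4.79 ± 0.505 SE, adjusted p = 1.36e-06) and Nr4a3 78.6-fold higher in basal cells (-6.30 ± 0.404 SE, adjusted p = 8.83e-09).

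Basal library 1 was the highest of the basal libraries for all 3 NR4A receptors and basal library 4 the lowest. Without basal library 1 the log2 fold changes were -2.04 for Nr4a1, -4.26 for Nr4a2 and -6.05 for Nr4a3, and all 3 were still called. Per kilobase of exon, Nr4a1 made up 95.8% ± 1.81 (SD) of the summed NR4A level in luminal and 71.8% ± 5.72 in basal cells. Nr4a3 took 1.64% ± 0.446 in luminal and 20.6% ± 6.20 in basal cells, and Nr4a2 took 2.61% ± 1.66 and 7.65% ± 0.986. The summed level was 27.6 ± 11.3 CPM per kb in luminal and 204 ± 135 CPM per kb in basal cells. Thus basal cells held both more NR4A transcript and a larger share of Nr4a3 in it.

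Because the NR4A genes belong to the immediate early genes, which are transcribed within minutes of a stimulus such as tissue dissociation, a list of 12 other genes of that class was examined beside them. All 12 were higher in basal cells, 8 of them by at least 2-fold, with a median log2 fold change of -1.29. For 8 the groups of libraries did not overlap. Among all genes tested, 31.2% passed toward basal cells and 40.0% were called with at least a 2-fold change in either direction. For 50.1% of all genes the groups did not overlap. Egr2, a zinc finger factor, was at 1.53 ± 0.322 CPM in luminal and 154 ± 27.4 CPM in basal cells (log2 fold change -6.66, adjusted p = 2.75e-11). The AP-1 subunit Fosl1 (-2.75), the phosphatase gene Dusp1 (-2.07) and Ier3 (-1.91) followed, whereas Fos (-0.91) and Junb (-0.37) differed less. The summed level of the list was 2268 to 3077 CPM in luminal and 4535 to 7342 CPM in basal libraries, and the highest sum was again that of basal library 1. By the study's methods the gland was digested with hyaluronidase and collagenase for many hours, then briefly treated with trypsin and dispase, and sorted cells were kept on ice. The part of dissociation in the NR4A levels was not tested.

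**Figure D2:**
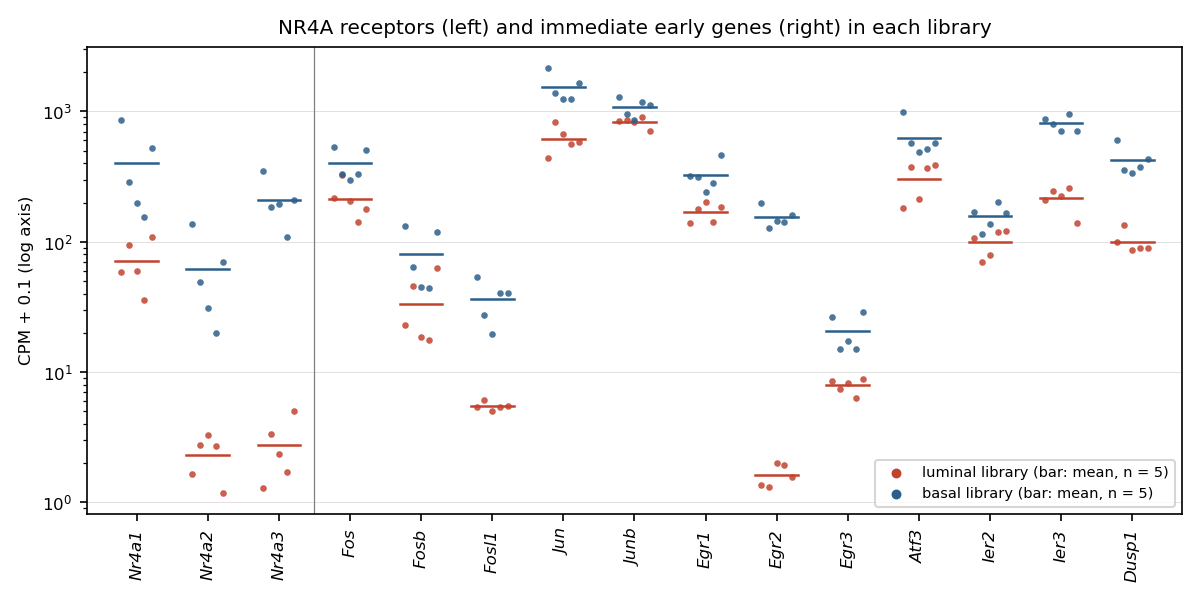
Level of the 3 NR4A receptors (left) and of 12 immediate early genes (right) in each library, as CPM plus 0.1 on a log axis, with means as bars and n = 5 per cell type. Every gene has its higher mean in basal cells, and Nr4a2, Nr4a3 and Egr2 show the widest gaps, while Junb and Ier2 overlap between the cell types.

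The promoters of the 3 NR4A genes are shown because the genes moved together. Each window runs from 250 bases before to 50 bases after 1 RefSeq start site on GRCm38.p6, the first entry of the gene in the promoter table, which for Nr4a1 and Nr4a3 lies inside the gene span and is not its outermost start. The letters CGTCA, the core of the cyclic AMP response element, were searched on both strands and stand in capitals (TGACG where they lie on the opposite strand).
Nr4a1, chr15:101266596-101266895, plus strand: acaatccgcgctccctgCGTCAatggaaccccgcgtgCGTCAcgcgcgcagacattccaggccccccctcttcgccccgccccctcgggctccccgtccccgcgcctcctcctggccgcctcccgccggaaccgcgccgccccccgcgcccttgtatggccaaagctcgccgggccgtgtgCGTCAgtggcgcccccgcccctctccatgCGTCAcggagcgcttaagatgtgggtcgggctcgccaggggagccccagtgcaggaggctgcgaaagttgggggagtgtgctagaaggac
Nr4a2, chr2:57123954-57124253, minus strand: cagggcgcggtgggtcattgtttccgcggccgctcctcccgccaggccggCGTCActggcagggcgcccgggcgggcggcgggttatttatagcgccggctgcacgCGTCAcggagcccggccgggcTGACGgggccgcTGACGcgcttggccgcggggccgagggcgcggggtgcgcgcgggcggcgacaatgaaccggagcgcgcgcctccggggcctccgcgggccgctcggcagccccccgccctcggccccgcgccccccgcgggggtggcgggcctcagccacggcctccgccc
Nr4a3, chr4:48045055-48045354, plus strand: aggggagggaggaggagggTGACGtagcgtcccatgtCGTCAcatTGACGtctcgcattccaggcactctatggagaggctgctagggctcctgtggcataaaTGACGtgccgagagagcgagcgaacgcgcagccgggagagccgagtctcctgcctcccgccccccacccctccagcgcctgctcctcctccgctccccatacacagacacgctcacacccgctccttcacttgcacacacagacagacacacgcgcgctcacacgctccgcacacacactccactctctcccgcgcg

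Each of the 3 windows held 4 copies, with their first bases at positions -233, -213, -69 and -40 from the start in Nr4a1, at -200, -144, -123 and -111 in Nr4a2 and at -231, -213, -205 and -147 in Nr4a3. At least 3 copies were found in 340 of the 32851 promoters of the table (1.04%), and at least 1 copy in 20.8%. Of the 44 receptors, 40 had a promoter in the table (60 windows in all), and only Nr2e1 among the rest of the 40 had a window with 3 or more copies. A match is a description of the sequence and says nothing about binding in these cells.

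The largest differences toward luminal cells were those of Esrrb and Esrrg, which with Esrra make up the estrogen-related receptors, orphan relatives of the estrogen receptor that drive genes of mitochondrial and energy metabolism and do not bind estrogen. Esrrb (Entrez 26380, chr12:86361117-86521628, plus strand), best known from pluripotent stem cells, was at 24.8, 11.6, 9.08, 29.8 and 24.7 CPM in luminal libraries 1 to 5 and at 0.499, 0.205, 0.309, 0.0625 and 0.300 CPM in the basal libraries. No basal library held more than 8 counts of it. It was 70.5-fold higher in luminal cells (log2 fold change 6.14 ± 0.469 SE, adjusted p = 4.88e-08).

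Esrrg (Entrez 26381, chr1:187608510-188214885, plus strand), which supports oxidative metabolism in heart and muscle, was at 13.7, 14.9, 21.2, 50.2 and 36.3 CPM in the luminal and at 0.561, 0.750, 0.464, 0.250 and 0.539 CPM in the basal libraries. Luminal libraries 4 and 5 were above the other luminal libraries, and all of them were far above the basal ones. It was 52.4-fold higher in luminal cells (log2 fold change 5.71 ± 0.444 SE, adjusted p = 5.88e-08).

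Esrra, the broadly expressed member, differed far less. It was at 32.7 to 42.3 CPM (median 38.9) in luminal and 19.8 to 29.0 CPM (median 25.8) in basal libraries, without overlap, a 1.49-fold difference (log2 fold change 0.58 ± 0.145 SE, adjusted p = 0.00302). Its exons share 73 bases (3.26%) with Trmt112 on the opposite strand. Per kilobase, Esrra held 98.8% ± 0.557 of the summed level of the 3 receptors in basal cells but 68.0% ± 10.8 in luminal cells, where Esrrg held 18.5% ± 8.30 and Esrrb 13.6% ± 4.59. Luminal cells thus expressed all 3 and basal cells almost solely Esrra.

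Their coactivators are the PGC-1 proteins, which switch on mitochondrial genes together with these receptors and the PPARs. Ppargc1b was higher in basal cells, at 2.53 ± 0.974 CPM in luminal and 7.47 ± 1.42 CPM in basal libraries (log2 fold change -1.55, adjusted p = 0.00045). Ppargc1a was at 1.67 ± 1.06 CPM and 0.854 ± 0.254 CPM and did not pass the test (adjusted p = 0.137). The coactivator higher in basal cells was therefore opposite in direction to the receptors.

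**Figure D3:**
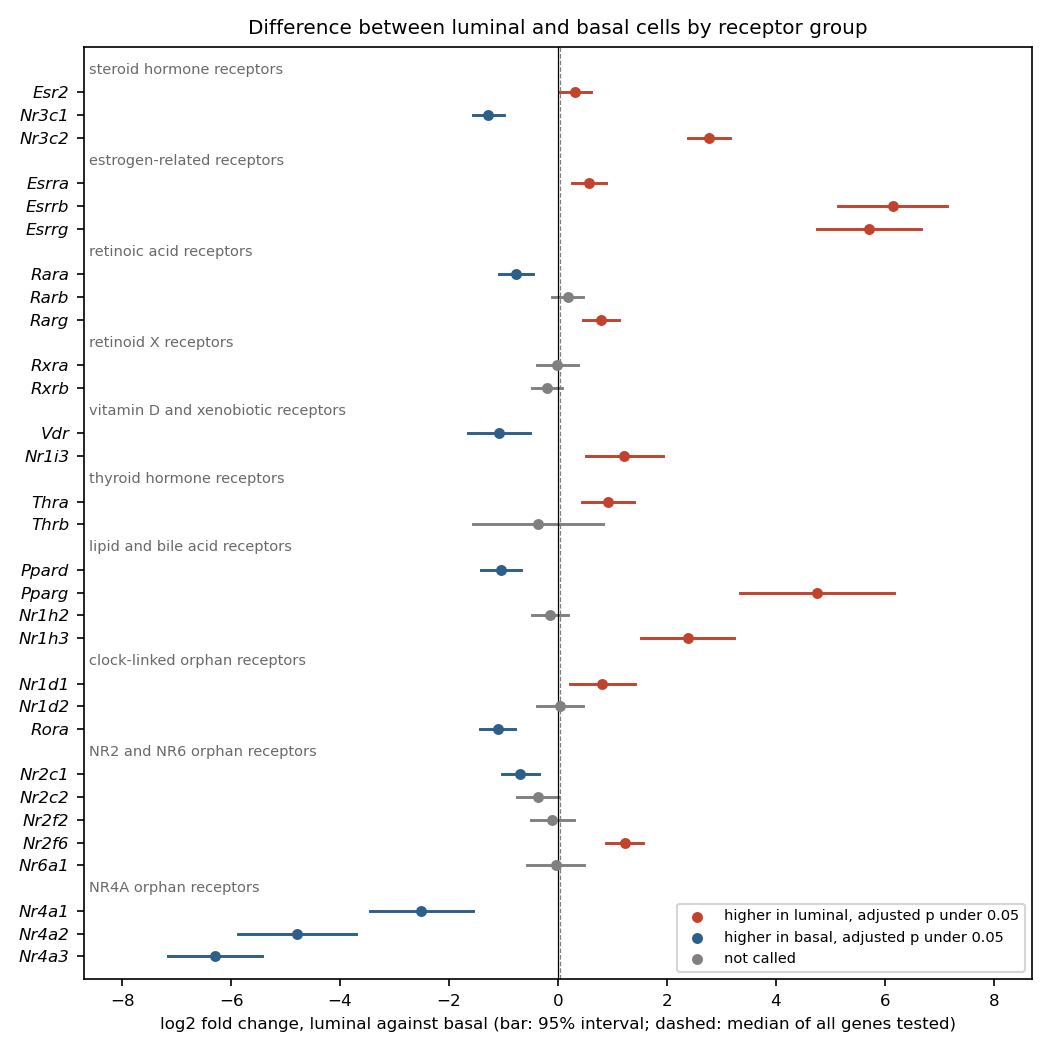
Log2 fold change, luminal against basal, of the 30 tested receptors in their groups, with 95% intervals from edgeR's quasi-likelihood fit. Red points were higher in luminal and blue points in basal cells at an adjusted p under 0.05, and grey points were not called. Estimates run from -6.30 for Nr4a3 to 6.14 for Esrrb, and the dashed line is the median of all genes tested, 0.05.

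Of the 3 peroxisome proliferator-activated receptors (PPARs), sensors of fatty acids, the 2 that could be tested had opposite directions. Pparg (Entrez 19016, chr6:115360879-115490404, plus strand), the receptor that drives fat cell formation, was at 1.13, 3.95, 3.93, 6.87 and 3.05 CPM in luminal libraries 1 to 5 and at 0.0624, 0.136, 0.232, 0.250 and 0 CPM in the basal libraries. No basal library held more than 4 counts, and the groups did not overlap. Pparg was 26.9-fold higher in luminal cells (log2 fold change 4.75 ± 0.661 SE, adjusted p = 2.14e-05). Of the 6 markers of fat cells, Adipoq was at 0 in all libraries. Retn and Cidec had the higher mean in luminal cells (1.17 against 0.0778 CPM and 0.225 against 0.012 CPM) and Plin1, Lep and Cfd in basal cells (0.128 against 0.294 CPM, 0.0105 against 0.166 CPM and 0 against 0.180 CPM), and none could be tested. The part of fat cells in the Pparg level was not tested.

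Ppard (Entrez 19015, chr17:28232754-28301469, plus strand), the broadly expressed PPAR, was at 55.6, 40.6, 42.3, 28.8 and 43.4 CPM in the luminal and at 80.1, 103, 98.2, 80.8 and 72.4 CPM in the basal libraries. Every basal library was above every luminal one, and the gene was 2.06-fold higher in basal cells (log2 fold change -1.04 ± 0.172 SE, adjusted p = 9.89e-05). Ppara, the PPAR of liver and fasting, had at most 16 counts in any library and was not tested. Per kilobase, Ppard held 99.2% ± 0.481 of the summed PPAR level in basal and 87.7% ± 7.96 in luminal cells, with Pparg at 11.8% ± 8.04 in luminal cells, from 2.70% in library 1 to 24.7% in library 4. Thus Ppard was the main PPAR transcript in both cell types.

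Of 12 classical PPAR target genes, 5 were higher in luminal cells and 5 in basal cells, with a median log2 fold change of 0.05. The share called was 83.3%, against 64.8% of all genes tested. Among those higher in luminal cells were Ehhadh (1.07), Acadm (0.86) and Acadvl (0.65), enzymes of fatty acid oxidation. Those higher in basal cells were the fatty acid carrier Fabp4 (-2.41), the kinase gene Pdk4 that limits glucose oxidation (-2.30), the fatty acid receptor Cd36 (-2.72), the uncoupling protein Ucp2 (-1.29) and the lipid droplet protein Plin2 (-0.58). Plin2 was near the threshold (adjusted p = 0.0456), and its groups of libraries overlapped. With the replicate number as a block, 4 targets instead of 5 were called higher in basal cells.

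The liver X receptors sense oxysterols and switch on cholesterol export. Nr1h3 (LXR alpha, Entrez 22259, chr2:91184061-91202829, minus strand) was at 6.88, 6.64, 7.42, 2.21 and 5.71 CPM in the luminal and at 1.31, 1.36, 1.55, 0.688 and 0.659 CPM in the basal libraries. Luminal library 4 was the lowest luminal library and still above all basal ones. Nr1h3 was 5.20-fold higher in luminal cells (log2 fold change 2.38 ± 0.394 SE, adjusted p = 0.000108). The ubiquitous Nr1h2 (LXR beta) was at 96.3 ± 19.4 CPM in luminal and 107 ± 7.89 CPM in basal cells and was not called (log2 fold change -0.15, 95% interval -0.47 to 0.18, adjusted p = 0.406). Per kilobase it made up 94.9% ± 1.15 of the LXR level in luminal and 99.0% ± 0.378 in basal cells.

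Of 9 tested targets of the LXRs and of the bile acid receptor, 4 had their higher level in luminal cells and 3 in basal cells. These calls make up 77.8% of the targets tested, against 64.8% of all genes. The cholesterol exporter Abcg1 was at 45.4 ± 20.2 CPM in luminal and 2.19 ± 0.940 CPM in basal cells (log2 fold change 4.37, adjusted p = 1.32e-07), and the desaturase gene Scd1 at 377 ± 219 CPM and 29.6 ± 9.20 CPM (3.67, adjusted p = 1.08e-06). The other exporter, Abca1, was higher in basal cells (-0.83), as was the lipoprotein gene Apoe, at 38.8 ± 10.3 CPM in luminal and 1196 ± 220 CPM in basal cells (-4.95, adjusted p = 5.67e-10). Slc51b, a subunit of the bile acid exporter, was at 0 in every luminal library and at 8.65 ± 4.05 CPM in basal cells, at least 45.6-fold higher against 3 counts per luminal library, whereas the bile acid receptor Nr1h4 itself had at most 5 counts in any library. The targets of these receptors therefore did not share a direction.

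The steroid receptors of the list were split as well. Nr3c1 (Entrez 14815, chromosome 18), the glucocorticoid receptor, was at 55.6, 54.0, 46.7, 47.2 and 46.3 CPM in luminal libraries 1 to 5 and at 127, 127, 122, 94.8 and 136 CPM in the basal libraries. The groups were far apart relative to their spread, and Nr3c1 was 2.43-fold higher in basal cells (log2 fold change -1.28 ± 0.132 SE, adjusted p = 1.06e-06). Nr3c2 (Entrez 110784, chr8:76898083-77245012, plus strand), the mineralocorticoid receptor, which binds aldosterone and also glucocorticoids, was at 35.6, 35.7, 34.0, 50.9 and 34.0 CPM in the luminal and at 5.92, 6.69, 4.49, 5.06 and 5.63 CPM in the basal libraries. Luminal library 4 stood above the other luminal libraries, which lay close together. Nr3c2 was 6.82-fold higher in luminal cells (log2 fold change 2.77 ± 0.178 SE, adjusted p = 8.9e-09).

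Both receptors were thus detected in both cell types with opposite directions. Per kilobase, the luminal mean was 7.64 CPM per kb for Nr3c1 and 6.15 CPM per kb for Nr3c2, and the basal mean 18.6 CPM per kb and 0.899 CPM per kb. Of the 2 enzymes that convert glucocorticoids, Hsd11b2, which inactivates them, was higher in basal cells at 3.27 ± 1.43 CPM against 0.636 ± 0.516 CPM (log2 fold change -2.32, adjusted p = 0.00444), and Hsd11b1, which activates them, was too low to be tested.

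Of 9 tested genes of glucocorticoid metabolism and response, 3 were higher in luminal cells and 4 in basal cells. Thus 77.8% were called, against 64.8% of all genes tested. The luminal ones were the zinc finger gene Zbtb16 (log2 fold change 3.19, 58.4 ± 15.1 CPM against 6.38 ± 1.36 CPM, adjusted p = 1.23e-08), the receptor chaperone Fkbp5 (2.87, adjusted p = 1.45e-05) and Tsc22d3, known as Gilz (1.73). The basal ones were Hsd11b2, the feedback inhibitor Errfi1 (-2.40, 323 ± 40.7 CPM against 1704 ± 543 CPM, adjusted p = 2.66e-07), Dusp1, which is also one of the immediate early genes above, and Klf9 (-0.72). Sgk1 and Per1 were not called, with log2 fold changes of 0.33 and -0.36.

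Esr2, the estrogen receptor beta gene (Entrez 13983, chr12:76120419-76177259, minus strand), was at 47.1 to 52.7 CPM (median 47.5) in luminal and 34.9 to 47.4 CPM (median 36.9) in basal libraries. The groups overlapped by basal library 1, and the 1.25-fold difference was near the threshold (log2 fold change 0.32 ± 0.129 SE, adjusted p = 0.0419). With the replicate number as a block the adjusted p was 0.0665, so that the call was lost, and it ranged from 0.00316 to 0.148 over the alternatives.

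The retinoic acid receptors split by subtype at a similar total. Rara was at 76.0 to 108 CPM (median 84.5) in luminal and 121 to 172 CPM (median 162) in basal libraries, 1.70-fold higher in basal cells without overlap (log2 fold change -0.77 ± 0.144 SE, adjusted p = 0.000313). Rarg, a receptor prominent in skin and other epithelia, was at 78.6 to 137 CPM (median 106) in luminal and 50.4 to 72.8 CPM (median 64.7) in basal libraries, 1.73-fold higher in luminal cells without overlap (0.79 ± 0.157 SE, adjusted p = 0.000493). These 2 genes thus had opposite directions.

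Rarb, which retinoic acid itself induces in many cells, was at 41.0 ± 5.33 CPM in luminal and 36.3 ± 2.41 CPM in basal cells and was not called (log2 fold change 0.18, 95% interval -0.11 to 0.46, adjusted p = 0.258), although scaling by library totals alone, without the TMM composition factors used here, gave a call (0.36, adjusted p = 0.0266). In GENCODE, but not by the RefSeq spans, 52.9% of its exon bases lie opposite those of Top2b, which was at 75.9 ± 9.09 CPM and 97.9 ± 5.70 CPM, and reads of the 2 genes could not be told apart there if the counting ignored strand. Per kilobase the 3 receptors summed to 65.6 ± 8.55 CPM per kb in luminal and 65.5 ± 4.36 CPM per kb in basal cells. Rarg held 48.8% ± 3.40 of it in luminal and 28.5% ± 3.75 in basal cells, Rara 32.4% ± 2.32 and 55.1% ± 4.87, and Rarb 18.8% ± 3.89 and 16.4% ± 2.19. The largest share therefore passed from Rarg in luminal to Rara in basal cells, in every library.

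**Figure D4:**
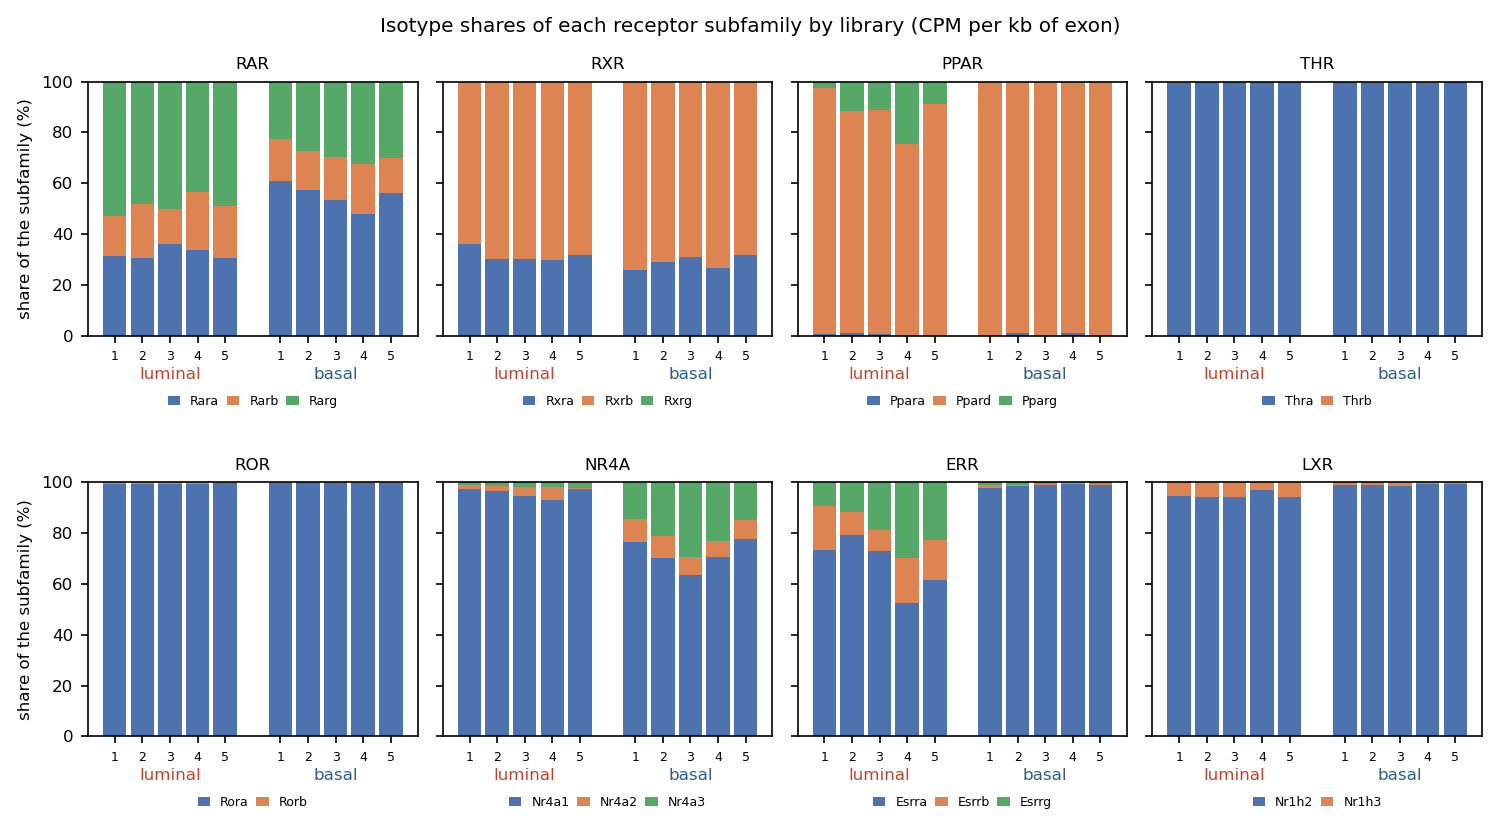
Share of each receptor, in percent of the summed CPM per kb of exon of the members named in the panel, in each of the 5 luminal and 5 basal libraries. Rarg leads the retinoic acid receptors in every luminal library and Rara in every basal one, whereas Thra, Rora, Nr1h2 and Ppard lead their subfamilies in both cell types.

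The promoter of Rarb is shown because it holds the textbook retinoic acid response element, a direct repeat of AGGTCA-like sites with 5 bases between, on which a retinoic acid receptor pairs with a retinoid X receptor. Of 32851 promoters 32 held such a repeat (0.0974%), and of the 40 receptors with a promoter in the table only Rarb did. Its 17 bases, in capitals, begin at position -53 from the start (RefSeq, GRCm38.p6). This start lies inside the span of Rarb (chr14:16430839-17082331) and is not the outermost start of the gene.
Rarb, chr14:16575427-16575726, minus strand: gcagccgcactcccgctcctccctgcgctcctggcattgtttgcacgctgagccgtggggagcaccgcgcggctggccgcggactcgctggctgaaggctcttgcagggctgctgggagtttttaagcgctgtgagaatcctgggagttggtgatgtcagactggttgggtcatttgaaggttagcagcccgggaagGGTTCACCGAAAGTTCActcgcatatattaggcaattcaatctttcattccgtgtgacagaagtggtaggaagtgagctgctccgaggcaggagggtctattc
The plain hexamers AGGTCA and CACGTG (the E-box of clock factors) were also searched on both strands. They were in 16.3% and 7.15% of all promoters and in 12 and 6 of the 60 receptor windows (11 and 5 receptors).

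The retinoid X receptors, partners of most receptors above, were not called. Rxra was at 61.1 ± 14.8 CPM in luminal and 61.8 ± 9.98 CPM in basal cells (log2 fold change -0.02, 95% interval -0.39 to 0.36, adjusted p = 0.946). Rxrb was at 74.3 ± 9.37 CPM and 85.7 ± 8.49 CPM (-0.21, -0.48 to 0.07, adjusted p = 0.179). Rxrg had at most 5 counts in any library. Per kilobase Rxrb held 68.5% ± 2.66 of the RXR level in luminal and 71.0% ± 2.54 in basal cells.

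Enzymes and carriers supply retinoic acid to its receptors. Of 10 tested genes of retinoid metabolism, luminal cells had the higher level of 5 and basal cells of 3, and all 8 by at least 2-fold. These 8 are 80% of the genes tested. Among all genes, 64.8% were called and 40.0% were called with at least a 2-fold change. Aldh1a3, which makes retinoic acid and marks luminal progenitors, was at 292 ± 138 CPM in luminal and 0.825 ± 0.327 CPM in basal cells (log2 fold change 8.45, adjusted p = 6.46e-10). The carrier Crabp2, which hands retinoic acid to its receptors, was also higher in luminal cells (2.96, 21.7 ± 7.88 CPM against 2.77 ± 1.05 CPM), as were Dhrs3 (1.70) and Rdh10 (1.33), which interconvert retinol and retinal. In basal cells the carrier Fabp5 was higher (-1.66, 19.8 ± 3.86 CPM against 62.5 ± 30.6 CPM). The dehydrogenase gene Dhrs9 was at 7.16 ± 3.01 CPM in basal cells and had at most 2 counts in a luminal library (adjusted p = 2.84e-07).

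The vitamin D receptor Vdr (Entrez 22337, chr15:97854427-97908296, minus strand) was at 125, 60.7, 119, 43.9 and 116 CPM in luminal libraries 1 to 5 and at 147, 216, 249, 161 and 206 CPM in the basal libraries. Luminal libraries 2 and 4 were well below the other luminal libraries, and the groups did not overlap, although luminal library 1 came near basal library 1. Vdr was 2.11-fold higher in basal cells (log2 fold change -1.08 ± 0.267 SE, adjusted p = 0.00273).

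Of 7 genes of vitamin D metabolism and transport, 3 could be tested and all 3 were higher in basal cells, where 31.2% of all genes were. Without luminal library 2, and likewise with no filter on low counts, 1 gene of the list was also called higher in luminal cells. The 3 genes higher in basal cells were Cyp27b1, which makes the active hormone (log2 fold change -1.60, 0.759 ± 0.299 CPM against 2.302 ± 0.687 CPM, adjusted p = 0.00362), Cyp27a1, which can make its precursor (-3.14, adjusted p = 0.000233), and the calcium channel Trpv6, a vitamin D target (-2.81, 3.51 ± 2.16 CPM against 24.6 ± 5.28 CPM, adjusted p = 7.51e-06). Cyp24a1, the degrading enzyme that the receptor induces, was too low for the test at 0.890 ± 0.509 CPM in luminal and 0.0279 ± 0.0386 CPM in basal cells, so that its means lie the other way.

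The xenobiotic receptor Nr1i3 (CAR, Entrez 12355, chr1:171213934-171218845, plus strand) was at 10.7, 12.3, 10.6, 19.7 and 9.20 CPM in the luminal and at 2.43, 5.39, 4.49, 9.69 and 4.80 CPM in the basal libraries. Library 4 was the highest within each cell type, and the groups overlapped by basal library 4, which was above luminal library 5. The gene was 2.32-fold higher in luminal cells (log2 fold change 1.22 ± 0.327 SE, adjusted p = 0.00474). Of its exon bases, 66.1% lie opposite those of Tomm40l, which showed a similar fold (1.15 ± 0.255 SE, 17.5 ± 3.94 CPM against 7.92 ± 2.86 CPM), so that the counts of both genes may hold the same reads if strand was ignored. Nr1i2 (PXR) had at most 1 count in any library.

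Of the thyroid hormone receptors, Thra was the main one. It was at 254, 322, 326, 500 and 320 CPM in luminal libraries 1 to 5 and at 270, 161, 122, 150 and 206 CPM in the basal libraries. Luminal library 4 stood above the others, and basal library 1 overlapped with luminal library 1. Thra was 1.89-fold higher in luminal cells (log2 fold change 0.92 ± 0.225 SE, adjusted p = 0.00245). Thrb was at 0.190 to 2.75 CPM in luminal and 1.01 to 2.25 CPM in basal libraries, and its interval of -1.56 to 0.83 leaves the direction undetermined at this depth. Thra held 99.8% ± 0.194 of the level per kilobase in luminal and 99.6% ± 0.148 in basal cells.

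Of 5 tested genes of thyroid hormone metabolism and transport, the corepressor Hr was higher in basal cells (log2 fold change -1.96, 14.7 ± 1.90 CPM against 57.5 ± 6.25 CPM, adjusted p = 3.41e-08) and the hormone-binding Crym in luminal cells (4.39, 3.99 ± 4.09 CPM against 0.182 ± 0.139 CPM, adjusted p = 0.000298). These 2 calls are 40% of the genes tested, against 64.8% of all genes. Without luminal library 1, and likewise without basal library 1, 2 genes of the list were called higher in basal cells. The deiodinase genes Dio1, Dio2 and Dio3 were too low to be tested.

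Thra and Nr1d1 lie tail to tail on chromosome 11 and share 263 exon bases (8.33% of Thra and 9.67% of Nr1d1) on opposite strands. Nr1d1 (REV-ERB alpha, Entrez 217166, chr11:98767932-98775377, minus strand) is a repressor in the circadian clock. Its mean level per kilobase was the highest of the receptors in both cell types, at 286 CPM per kb in luminal and 163 CPM per kb in basal cells. In basal cells the mean of Nr4a1 was near, at 151 CPM per kb, and in basal library 1 Nr4a1 had the higher CPM (861 against 736). Nr1d1 was at 481, 821, 793, 928 and 871 CPM in the luminal and at 736, 419, 247, 286 and 528 CPM in the basal libraries. Luminal library 1 was the lowest of its group and basal library 1 the highest of its own. The groups overlapped because basal libraries 1 and 5 were both above luminal library 1. It was 1.76-fold higher in luminal cells (log2 fold change 0.81 ± 0.278 SE, adjusted p = 0.0191), and without basal library 3 it was 0.66 with an adjusted p of 0.0514.

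Its relative Nr1d2 was at 117, 176, 198, 237 and 164 CPM in the luminal and at 215, 183, 126, 145 and 200 CPM in the basal libraries. The groups overlapped throughout and the gene was not called (log2 fold change 0.04, 95% interval -0.38 to 0.46, adjusted p = 0.882). Rora (Entrez 19883, chr9:68653404-69388246, plus strand), an activator that competes with the REV-ERB repressors for the same sites, was at 89.7, 73.4, 65.8, 102 and 72.3 CPM in the luminal and at 168, 193, 191, 141 and 173 CPM in the basal libraries. It did not overlap and was 2.15-fold higher in basal cells (-1.10 ± 0.150 SE, adjusted p = 1.68e-05). Rorb had at most 9 counts in any library.

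Of 15 other clock genes, luminal and basal cells each had the higher level of 5 (66.7% called, against 64.8% of all genes). Those higher in luminal cells were Npas2 (log2 fold change 2.43, 16.3 ± 3.66 CPM against 3.02 ± 0.266 CPM, adjusted p = 1.75e-07), Dbp (1.91, 305 ± 90.6 CPM against 81.2 ± 25.4 CPM, adjusted p = 8.76e-06), Per3 (1.63), Tef (1.17) and Bhlhe40 (0.91). Those higher in basal cells were Nfil3 (-1.49, 129 ± 21.6 CPM against 361 ± 118 CPM, adjusted p = 1.91e-05), Arntl (-1.34), Cry1 (-1.27), Per2 (-0.70) and Clock (-0.49). The hour at which the glands were taken is not given in the sources used here.

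Among the NR2 and NR6 orphan receptors, Nr2f6 (EAR2, Entrez 13864, chr8:71374118-71381967, minus strand), a repressor related to the COUP factors, was at 147, 92.5, 116, 105 and 133 CPM in the luminal and at 42.8, 47.7, 48.0, 63.8 and 52.3 CPM in the basal libraries. The groups were well apart, and it was 2.33-fold higher in luminal cells (log2 fold change 1.22 ± 0.157 SE, adjusted p = 9.7e-06). In GENCODE, 41.2% of its exon bases lie opposite those of Ocel1, which showed a similar fold (1.33 ± 0.156 SE, 78.8 ± 12.0 CPM against 31.4 ± 5.31 CPM), whereas by their RefSeq spans the genes do not overlap.

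Nr2c1 (TR2), a corepressor-binding orphan, was at 14.3 to 20.4 CPM (median 14.9) in luminal and 21.6 to 30.4 CPM (median 25.1) in basal libraries, 1.62-fold higher in basal cells (log2 fold change -0.69 ± 0.157 SE, adjusted p = 0.00147). Its partner Nr2c2 (TR4) was at 41.8 ± 8.48 CPM and 53.9 ± 11.7 CPM and was not called (-0.37, 95% interval -0.76 to 0.03, adjusted p = 0.0937), with 43.5% of its exon bases opposite those of Mrps25. Leaving out luminal library 1 or basal library 4 brought it under the threshold (-0.46, adjusted p = 0.045, and -0.48, adjusted p = 0.0257). Nr2f2 (COUP-TFII) was at 17.0 ± 4.45 CPM and 18.3 ± 0.903 CPM, and Nr6a1 (GCNF) at 23.6 ± 10.2 CPM and 24.3 ± 2.92 CPM, and neither was called. Luminal libraries of Nr6a1 ranged from 11.9 to 40.2 CPM, a wider spread than the 21.6 to 28.0 CPM of the basal ones.

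The 14 receptors that were not tested had at most 16 counts in any library. They are the tissue-restricted members Nr1i2, Nr1h4, Hnf4a and Hnf4g of liver and gut, Nr5a1, Nr5a2, Nr0b1 and Nr0b2 of steroid-making tissue and liver, Nr2e1, Nr2e3 and Rorb of brain and retina, with Nr2f1, Rxrg and Ppara. Nr2e3, Nr2f1, Nr5a1 and Nr0b1 were at 0 counts in all 10 libraries, which allows a level of up to 0.158 to 0.232 CPM per library (3 counts, counting error only). The highest mean among them was that of Ppara in basal cells, at 0.553 ± 0.404 CPM, against 0.236 ± 0.186 CPM in luminal cells. They did not pass the count filter, so that no difference between the cell types was tested for these receptors in the main fit.

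Coactivators and corepressors carry the effect of the receptors to chromatin. All 16 listed were tested, and luminal cells had more of 4 and basal cells of 5, 9 in all (56.2%, against 64.8% of all genes), with a median log2 fold change of -0.02. With library totals alone as the scale, basal cells had more of 3. Nrip1, a corepressor of many receptors, was higher in basal cells at 110 ± 33.3 CPM against 294 ± 51.1 CPM (-1.41, adjusted p = 3.89e-05), as were Ppargc1b (above), the deacetylase Hdac3 (-0.68), the mediator subunit Med1 (-0.54) and the corepressor Ncor1 (-0.40). The coactivators Ncoa1 (0.44) and Ncoa2 (0.46) and the corepressor subunits Gps2 (0.75, 27.0 ± 6.93 CPM against 16.03 ± 1.504 CPM) and Tbl1xr1 (0.68) were higher in luminal cells. The rest, among them Ncoa3, Ncoa6, Ncoa7 and Lcor, were not called. The common cofactors thus differed by less than 2-fold, except Nrip1 and Ppargc1b.

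**Figure D5:**
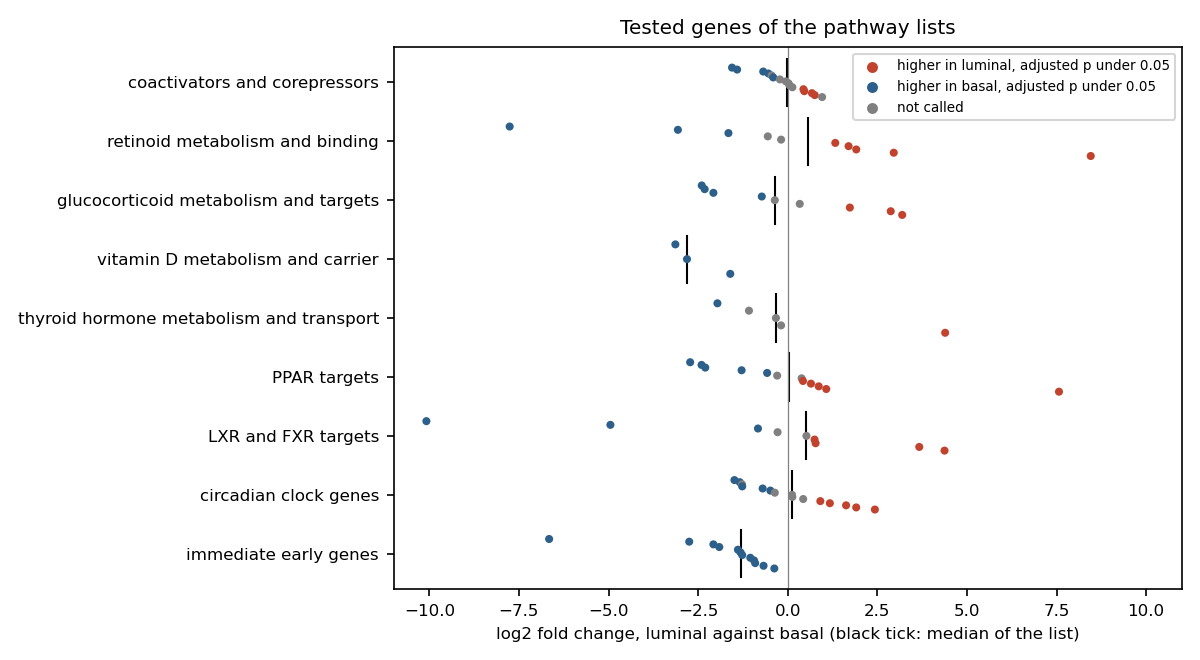
Log2 fold change, luminal against basal, of each tested gene of the pathway lists, with red for higher in luminal, blue for higher in basal and grey for not called, and black ticks at the list medians. The immediate early genes and the vitamin D genes lie on the basal side only, whereas the other lists spread to both sides, the point at the far left being Slc51b, whose estimate depends on counts of 0 in luminal cells.

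Over all lists, 89 of 106 genes were tested, with 27 called toward luminal and 40 toward basal cells (75.3% called, against 64.8% of all genes). The libraries also varied within a cell type. Luminal library 4 was the highest luminal library for 10 of the 30 receptors (Nr3c2, Esrrb, Esrrg, Nr1i3, Thra, Pparg, Nr1d1, Nr1d2, Rora and Nr6a1) and the lowest for 10 others. Luminal library 1 was likewise the highest luminal library for 10 and the lowest for 8. Basal library 1 was the highest basal library for 11 and the lowest for 8, and basal library 4 was the highest for 4 and the lowest for 11. Without luminal library 4, Esr2 was the only receptor whose call changed (log2 fold change 0.30, adjusted p = 0.0651).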

How the data were processed

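The values are whole-number counts of reads for each gene, which the authors deposited without any normalization. The submitters' processing notes name cutadapt 4.2, Bowtie2 2.3.5.1 and the mouse build mm10. The study describes poly(A) RNA, single-end reads and alignment at default settings, for fewer replicates than the 5 libraries here. The counting tool, its annotation and its strand setting are not given in the sources used here, and the kit named in the labels does not mark strand, so that overlapping genes on opposite strands may share reads. Bowtie2 does not split reads across exon junctions, which can lower counts of genes with short exons.

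Of 24594 Entrez identifiers, 24570 had a symbol in the RefSeq table of GRCm38.p6, the source of all coordinates. Genes were filtered with filterByExpr (minimum count 10, minimum total 15), which left 14609 genes, library totals were scaled with TMM factors, and cell type was the only term of edgeR's quasi-likelihood test (edgeR 4.0.16, R 4.3.3). Benjamini-Hochberg adjustment covered every gene tested. The SE was obtained from the estimate and the square root of F, as their quotient. Shares of a subfamily use CPM per kilobase of merged GENCODE M21 exons. The scripts were tested on simulated data.

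Alternatives were DESeq2 size factors, upper-quartile factors, library totals alone, no filter, at least 10 counts in every library, DESeq2 1.42.0, limma voom (limma 3.58.1), the replicate number as a block, leaving out each library and shares without a length correction. Same-numbered libraries share the leading number of the description, read here as the animal, which is where the pairing comes from. Their deviations from the group means correlated at -0.105 to 0.169 (mean 0.0369), against a mean of -0.00626 for other pairs. No replicates agreed within sampling noise (lowest chi-square per degree of freedom 15.2 in basal and 33.3 in luminal libraries).

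Receptors called with at least a 2-fold change and a mean of 1 CPM or more in the higher cell type, and those of the glucocorticoid, mineralocorticoid, NR4A and clock-linked groups, are given by library, as is Thra, chosen after its values were seen, and the others by mean or range. From each pathway list the rule names up to 4 genes, those with the largest change among called genes with a mean of 5 CPM or more, and other list genes were named after their values were seen. The receptors, lists and searched letters were chosen with earlier results of these data known. Protein sequences were not used here. Some genes of the pathway lists are counted in the lists but not reported here by name.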

Additional observations from a re-analysis of the deposited data

Results flagged for a closer look

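In 128 groups of 5 libraries (receptors, pathway genes and library totals), 6 held a library whose gap to its nearest neighbor was more than 0.71 of the range of the group, where chance gives about 6.4. Luminal library 4 was apart for the mineralocorticoid receptor Nr3c2, at 50.9 CPM where the rest of its group lay at 34.0 to 35.7 CPM, and for Thra, at 500 CPM against 254 to 326 CPM. Luminal library 2 was apart for Nr2c1, at 20.4 CPM against 14.3 to 15.8 CPM, for the untested Nr0b2, at 0.263 CPM against 0 in the others, and for Dusp1, at 135 CPM against 86.6 to 100.1 CPM. Basal library 4 was apart for Zbtb16, at 8.75 CPM against 5.30 to 6.17 CPM. The calls of Nr3c2, Thra and Nr2c1 were kept without these libraries.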

How the results depend on the processing

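Of 536 log2 fold changes of the 30 receptors under the alternatives, 499 kept their direction and their side of the threshold, 13 lost the call, 3 gained it and 21 changed sign. The count of receptors ranged from 9 to 13 for luminal and from 9 to 10 for basal cells. Of the lost calls, 12 concern Esr2 and 1 Nr1d1 (without basal replicate 3). With library totals alone Rarb was called (0.36, adjusted p = 0.0266). With the replicate number as a block Esr2 lost its call (0.33, adjusted p = 0.0665) and no other call of a receptor changed. Requiring 10 counts or more in each library dropped Esrrb, Esrrg, Pparg and Thrb.

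The signs that changed belong to receptors that were not called. With upper-quartile factors, which moved the median of all genes by 0.12, the log2 fold change was 0.10 for Rxra, 0.015 for Nr2f2 and 0.089 for Nr6a1. With library totals alone, which moved it by 0.19, it was 0.17 for Rxra, 0.052 for Nr1h2, 0.099 for Nr2f2 and 0.14 for Nr6a1. That of Nr1d2 was -0.0038 with DESeq2 size factors, -0.0037 in DESeq2 and -0.029 with no filter. When a library was left out, values ran from -0.14 to 0.066 for Rxra, from -0.089 to 0.17 for Nr1d2 and from -0.32 to 0.14 for Nr6a1.

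Without the length correction, shares moved to 45.0% for Rarg in luminal and 60.7% for Rara in basal cells, and, in luminal and basal cells, to 55.2% and 58.2% for Rxrb, 99.6% and 99.1% for Thra, 93.1% and 57.1% for Nr4a1, and 46.7% and 96.9% for Esrra. With library totals alone, coactivators and corepressors with more in basal cells fell from 5 to 3. Leaving out luminal library 2 raised the vitamin D genes higher in luminal cells from 0 to 1, and leaving out luminal or basal library 1 raised the thyroid hormone genes higher in basal cells from 1 to 2. The other list counts that moved by over 1.5 times did so under the stricter filter or with no filter. Depth limits the 14 untested receptors.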
